A study of Mus musculus with 20 samples.

Results

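Oxidative phosphorylation (OXPHOS) subunits are the proteins of the respiratory chain and the ATP synthase, and their transcripts come from the nuclear and the mitochondrial genome. Members were the protein-coding genes whose symbols belong to the Ndufa, Ndufb, Ndufc, Ndufs and Ndufv families (complex I), to Sdha through Sdhd (complex II), to Uqcr and Cyc1 (complex III), to Cox4 through Cox8 (complex IV) and to Atp5 (complex V), or to the mitochondrial mt-Nd, mt-Cytb, mt-Co and mt-Atp genes, with a mean expression value of at least 3. Of the 55335 genes in the expression table, 103 protein-coding genes carried such a symbol and 98 of them reached the minimum, 85 nuclear and 13 mitochondrial. The 5 others were Cox4i2, Cox7b2, Cox8c, Ndufb11b and a second gene model named Atp5po, all with mean values below that minimum. The nuclear members divided into 36 of complex I, 4 of complex II, 9 of complex III, 18 of complex IV (with Ndufa4 and Ndufa4l2 placed there) and 18 of complex V. The mitochondrial members divided into 7 of complex I, 1 of complex III, 3 of complex IV and 2 of complex V. Values are regularized log2 (rlog) values, which shrink differences toward 0 and do so most at low levels. A difference between groups is thus on a log2 scale and understates the change in reads.

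Complexes I to IV pass electrons from NADH and succinate to oxygen, and complexes I, III and IV pump protons out of the mitochondrial matrix as they do so. Complex V lets the protons back in to make ATP. All complexes but II are built from subunits of both genomes. The mitochondrial genes are transcribed as long precursors from each strand and cut into shorter transcripts. The nuclear genes are transcribed one by one, and several have forms restricted to muscle. Skeletal muscle fills much of its ATP demand during sustained work through this pathway, and cultured myotubes gain mitochondria as they differentiate.

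The cells were C2C12 myotubes, which form by fusion of a mouse myoblast line (named as myoblasts in the sample labels) and which had received adenovirus on day 4 of differentiation. RNA was taken 48 h later from 20 libraries in 4 groups of 5: Per1 with Gfp, its Gfp control, Per2 with Gfp, and its Gfp control. PER1 and PER2 are repressors of the circadian clock, and the comparison asks what their sustained excess changes in myotubes. Gfp, a fluorescent marker, was made in all groups. The methods give CMV promoters for the vectors, a higher dose of the Per viruses than of the Gfp virus, and several cultures from a single experimental replicate. The effects of PER protein and of viral dose therefore cannot be told apart. Since the cultures belong to a single experiment, p values speak only of how far these cultures differed from each other. The Gfp libraries were put with Per1 or Per2 by the number series in the labels, giving a Per1 set (Per1 11 to 15 with Gfp 11, 13, 14, 15 and 16) and a Per2 set (Per2 1 to 5 with Gfp 1 to 5). The values of the sets had been made separately, so no library was compared across them.

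The transduced genes checked the labels, with Per1 at 19.58 in Per1 myotubes and 15.27 in Gfp myotubes of the Per1 set, and Per2 at 19.71 in Per2 myotubes and 14.82 in Gfp myotubes of the Per2 set. The 13 markers of differentiated myotubes had a summed log2 level of 21.32 to 21.38 in Per1 and 21.48 to 21.52 in Gfp libraries, and of 21.02 to 21.11 in Per2 and 21.10 to 21.23 in Gfp libraries. Of these markers 11 (84.6%) were lower with Per1, and 7 (53.8%) lower and 1 higher with Per2, at an adjusted p of at most 0.05 (limma). Of all genes tested, 20.1% were higher and 20.6% lower with Per1, and 18.6% higher and 17.5% lower with Per2. The same shares apply to the marker counts that follow. The 6 reserve cell and myoblast markers stood at 15.94 to 15.98 in Per1 and 15.83 to 15.86 in Gfp libraries, and at 15.52 to 15.57 in Per2 and 15.42 to 15.44 in Gfp libraries. Of these, 4 were higher and 2 lower (Hes1 and Sdc4) with Per1, and 4 higher and 0 lower with Per2 (limma, and the same at an unadjusted p below 0.05). The 7 proliferating myoblast markers stood at 16.70 to 16.85 in Per1 and 16.68 to 16.81 in Gfp libraries. In the Per2 set they stood at 17.01 to 17.16 in Per2 and 16.92 to 17.06 in Gfp libraries. Both sets overlapped, and 1 marker was higher and 2 lower with Per1 and 2 higher with Per2. The fibro-adipogenic list, carried by Ly6a and Dpt with Adipoq below the minimum in both sets, stood at 15.89 to 16.06 in Per1 and 15.56 to 15.66 in Gfp libraries, and at 15.69 to 15.76 in Per2 and 15.32 to 15.52 in Gfp libraries. Of its 3 genes tested, 2 were higher with each virus. The other went down with Per1, at -0.12 (limma, only at an unadjusted p below 0.05), and had 0.023 with Per2. The macrophage list was low, at 9.36 to 9.42 in Per1 and 9.34 to 9.41 in Gfp libraries, and at 9.20 to 9.25 in Per2 and 9.40 to 9.42 in Gfp libraries, without overlap in the Per2 set. Of its 3 genes tested with Per1, 1 was higher and 1 lower, and of 4 tested with Per2, 2 were lower. The endothelial list was low as well, at 8.27 to 8.34 in Per1 and 8.05 to 8.20 in Gfp libraries, without overlap, and at 8.14 to 8.26 in Per2 and 8.11 to 8.21 in Gfp libraries. Its 4 genes did not move together, with 2 higher and 1 lower with Per1. With Per2, 3 were lower and 0 higher (limma, and the same at an unadjusted p below 0.05). In bulk RNA, fewer cells of a type and less RNA per cell cannot be told apart, and the part of these markers in the results below was not tested. The Gfp libraries were themselves uneven. Over the genes tested that are not members, Gfp 1 and Gfp 2 of the Per2 set differed from the other 3 by a root mean square of 0.0773 to 0.0896 rlog units, against 0.0721 between the pair and 0.0642 to 0.0777 among the other 3. Gfp 11 and Gfp 13 of the Per1 set likewise differed from the other 3 by 0.0692 to 0.0776, against 0.0672 between the pair and 0.0629 to 0.068 among the other 3. The nuclear members followed these differences, as given below.

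The differences of OXPHOS transcripts were small with either virus. With Per1, 12 members were higher and 8 lower than with Gfp at an adjusted p of at most 0.05 (limma, two-sided), while 40.7% of the 20559 genes tested passed in either direction, 20.1% higher and 20.6% lower. With Per2, 2 members were higher and 13 lower, while 36.1% of 20628 genes passed, 18.6% higher and 17.5% lower. The shares of members that passed, 20.4% with Per1 and 15.3% with Per2, were below those backgrounds with all Gfp libraries, but not with Per2 once the Gfp libraries were split, as given below. They were also below the 56.4% with Per1 and 48.2% with Per2 of genes with a mean rlog of 12 to 16, the range that holds most nuclear members (22.2% higher and 34.1% lower with Per1, 23.9% higher and 24.3% lower with Per2). The median SE was larger for members than for genes of that range, at 0.026 against 0.020 with Per1 and 0.029 against 0.023 with Per2. The part of this in the lower shares was not tested. No member of the 98 reached a log2 difference of 0.5 in either set at the adjusted p (limma), against 0.696% of all genes with Per1 and 0.621% with Per2. Groups without any overlap were found for 6 members higher and 4 lower with Per1, against a background of 14.8% of genes higher and 15.0% lower (29.7% in either direction), and for 2 higher and 6 lower with Per2, against 13.5% of genes higher and 12.8% lower (26.3% in either direction). At an unadjusted p below 0.05 the counts were 17 higher and 9 lower with Per1, and 3 higher and 20 lower with Per2, and over all genes they were 4875 higher and 4976 lower with Per1 and 4749 higher and 4517 lower with Per2. The median size of a difference was 0.031 for members and 0.051 for all genes with Per1, and 0.024 for members and 0.048 for all genes with Per2. Centring each library on its median moved the median difference of all genes to -0.021 in both sets and the share of passing genes that were higher from 49.4% to 34.25% with Per1 and from 51.63% to 35.08% with Per2. The members then split into 6 higher and 16 lower with Per1 and 2 higher and 20 lower with Per2.

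**Figure D1:**
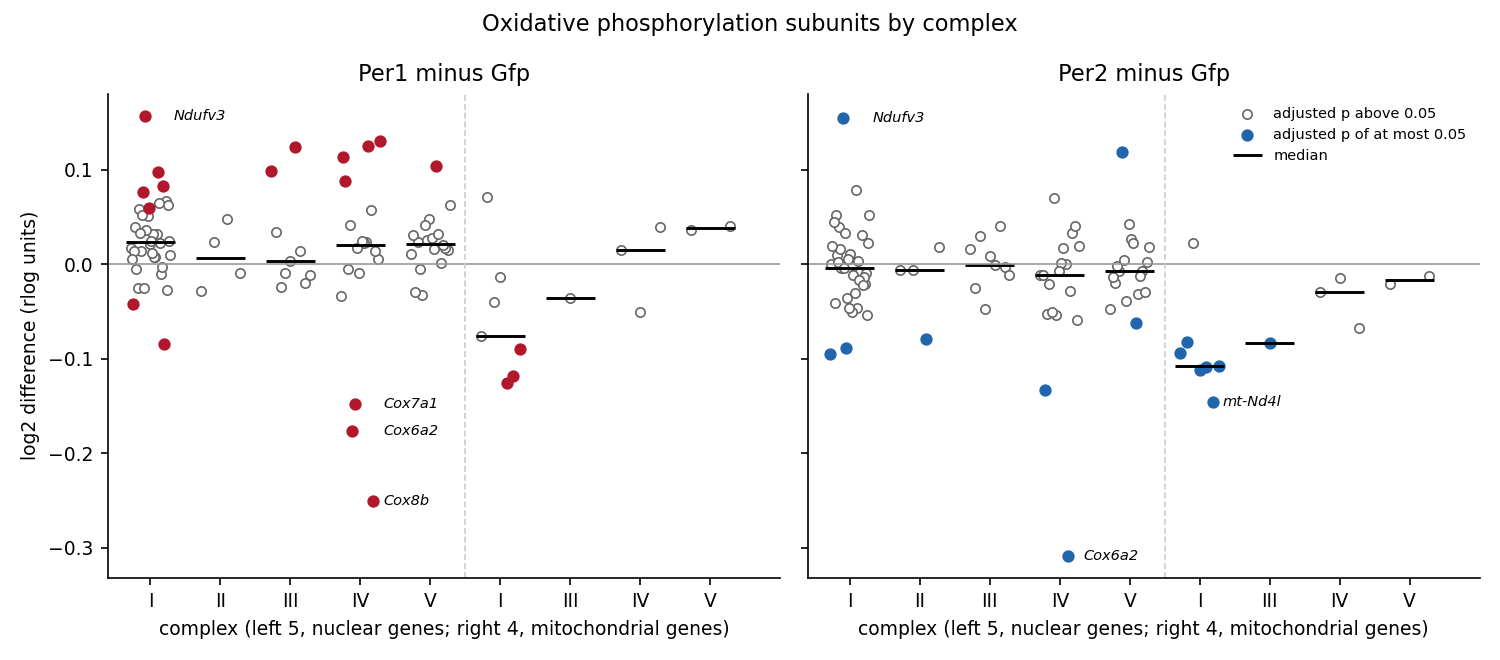
Log2 difference of each of the 98 OXPHOS members (vertical axis, rlog units) by complex (horizontal axis), for Per1 minus Gfp on the left and Per2 minus Gfp on the right. Each point is a gene and each bar a median, filled points passed the adjusted p, and members beyond 0.14 in size are named. Most points lie within 0.1 of 0, and the lowest are Cox8b at -0.25 with Per1 and Cox6a2 at -0.31 with Per2.

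The nuclear and the mitochondrial members had different medians in both sets. Nuclear members had a median difference of 0.021 with Per1 (62 above and 23 below 0, 12 passing higher and 5 lower) and of -0.0064 with Per2 (36 above and 49 below 0, 2 passing higher and 6 lower). Mitochondrial members had a median of -0.036 with Per1 (0 passing higher and 3 lower by limma, and the same counts at an unadjusted p below 0.05) and of -0.082 with Per2 (0 passing higher and 7 lower, with 0 higher and 8 lower at an unadjusted p below 0.05). The median over all genes tested was 0.0011 with Per1 and 0.00060 with Per2. The sign of the nuclear medians turned with the scaling, to -0.00078 with Per1 under median centring and to 0.0018 with Per2 under quantile normalization. The mitochondrial median with Per2 stayed below 0 under both, at -0.10 and -0.050, while that with Per1 was -0.058 under median centring and 0 to within rounding under quantile normalization.

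Set library by library, these means overlapped or interleaved between groups. The mean of the 85 nuclear members was 13.75, 13.85, 13.78, 13.75 and 13.78 in Per1 libraries and 13.73, 13.72, 13.76, 13.79 and 13.80 in Gfp libraries. The same mean was 13.59, 13.61, 13.59, 13.61 and 13.59 in Per2 libraries and 13.55, 13.52, 13.65, 13.65 and 13.65 in Gfp libraries of the Per2 set. The Per2 libraries fell in the gap between Gfp 1 and Gfp 2 below and the other 3 above, and Per1 12 was the highest of its set. The mean of the 13 mitochondrial members was 17.76 to 17.83 in Per1 libraries and 17.76 to 17.90 in Gfp libraries, and 17.85 to 17.90 in Per2 libraries and 17.86 to 18.0 in Gfp libraries. Both ranges overlapped.

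The calls on nuclear members depended on which Gfp libraries were used, an alternative chosen after the data were seen. Against Gfp 3, 4 and 5 alone, 2 nuclear members were higher and 51 lower with Per2. Against Gfp 1 and 2 alone, 45 were higher and 2 lower. With Per1, 5 nuclear members were higher and 5 lower against Gfp 14, 15 and 16 alone, and 19 were higher and 1 lower against Gfp 11 and 13 alone. Over all 98 members, 63 passed with Per2 against Gfp 3, 4 and 5 and 50 against Gfp 1 and 2, where 35.76% and 34.63% of all genes passed. The share of members was then above that of all genes. However, this split follows the mean of the nuclear members given above, with the Per2 libraries in the gap between the parts. These counts therefore cannot show that members changed more than other genes. With Per1, 16 members passed against Gfp 14, 15 and 16 and 24 against Gfp 11 and 13, where 34.18% and 33.09% of all genes passed, and the share of members stayed below. The labels give no batch that would set these Gfp libraries apart. Where the call of a member described below depended on this choice, that is said beside it. Both parts are set against the same Per libraries. A call that passed against either part is thus not supported by independent tests.

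**Figure D2:**
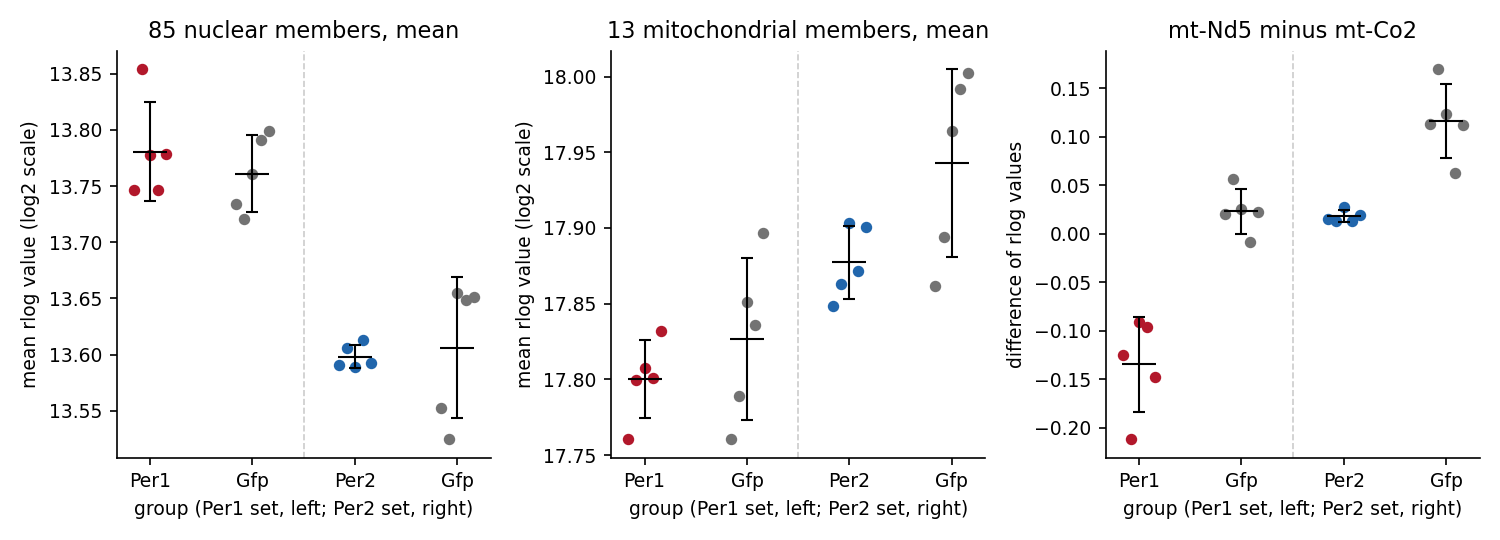
Mean rlog of the 85 nuclear members (left), mean rlog of the 13 mitochondrial members (middle) and mt-Nd5 minus mt-Co2 (right) in each library, with the Per1 set left and the Per2 set right of the dashed line. Points are libraries and black bars the mean and SD of 5 libraries. The Per2 libraries lie at 13.59 to 13.61 in the left panel, between 2 low and 3 high Gfp libraries, while in the right panel all Per libraries lie below the Gfp libraries of their set.

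Complex I, the NADH dehydrogenase, had 5 of 36 nuclear members higher and 2 lower with Per1, and 1 higher and 2 lower with Per2. The clearest was Ndufv3, an accessory subunit of the NADH-oxidizing end of the complex. Ndufv3 (ENSMUSG00000024038.17) lies at chr17:31739052-31751735 on the plus strand of GRCm39 and shares no 31-base sequence with another gene. It had 13.61, 13.71, 13.65, 13.59 and 13.64 in Per1 libraries and 13.48, 13.39, 13.51, 13.52 and 13.52 in Gfp libraries. In the Per2 set it had 13.37, 13.41, 13.39, 13.41 and 13.34 in Per2 libraries and 13.11, 13.13, 13.33, 13.29 and 13.28 in Gfp libraries. Every Per library was above every Gfp library of its set. The difference was 0.16 ± 0.027 with Per1 (SE, n = 5 each, adjusted p = 0.000323, limma) and 0.16 ± 0.038 with Per2 (SE, n = 5 each, adjusted p = 0.00563, limma). It passed against either part of the Gfp libraries, at 0.12 and 0.21 with Per1 and at 0.083 and 0.26 with Per2.

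Ndufv1, the core subunit that holds the flavin where NADH is oxidized, went the other way with Per2. It had 14.63, 14.64, 14.59, 14.63 and 14.60 in Per2 libraries and 14.65, 14.66, 14.78, 14.73 and 14.73 in Gfp libraries, without overlap. The difference was -0.089 ± 0.024 with Per2 (SE, n = 5 each, adjusted p = 0.00948, limma) and -0.027 with Per1 (adjusted p = 0.266, limma). Against Gfp 1 and 2 alone it was -0.035 with Per2 (adjusted p = 0.188, limma), and after median centring it passed with Per1 as well, at -0.049 (adjusted p = 0.0425, limma). The remaining nuclear complex I members that passed all had overlapping groups and were named after their values were seen. With Per1 they were the accessory subunits Ndufa3, Ndufa8, Ndufb1 and Ndufb4, higher by 0.060 to 0.098, Ndufb7, lower at -0.084, and the iron-sulfur core subunit Ndufs1, lower at -0.042. Ndufa3, Ndufa8, Ndufb1 and Ndufb4 no longer passed against Gfp 14, 15 and 16 alone or after median centring, and Ndufa8, Ndufb7 and Ndufs1 no longer passed against Gfp 11 and 13 alone. Ndufb4, Ndufb7 and Ndufs1 were lost after quantile normalization and Ndufb1 with array weights. With Per2 the accessory subunit Ndufa10 was lower at -0.095, a call lost against Gfp 1 and 2 alone. Of the members named with Per1, Ndufa3, Ndufb1 and Ndufb4 passed with Per2 against Gfp 1 and 2 alone. Ndufa8, Ndufb7 and Ndufs1 passed with Per2 against Gfp 3, 4 and 5 alone. Ndufb4 shares 40% of its 31-base sequences with other genes, so its value is uncertain.

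Complex II, the succinate dehydrogenase of the tricarboxylic acid cycle, is encoded by 4 nuclear genes. Sdha, its flavin-holding catalytic subunit, had 15.34, 15.32, 15.35, 15.30 and 15.30 in Per2 libraries and 15.40, 15.39, 15.46, 15.37 and 15.39 in Gfp libraries, without overlap. Its difference was -0.079 ± 0.020 with Per2 (SE, n = 5 each, adjusted p = 0.00768, limma), and -0.028 with Per1 (adjusted p = 0.205, limma). With Per2 it passed against either part of the Gfp libraries, at -0.083 and -0.073. After median centring it passed with Per1 as well, at -0.050 (adjusted p = 0.0302, limma). Sdhb, the iron-sulfur subunit, had 0.048 with Per1 and 0.018 with Per2, and the membrane anchors had 0.023 and -0.0064 (Sdhc) and -0.0096 and -0.0057 (Sdhd), none past the adjusted p. With Per2 against Gfp 1 and 2 alone, Sdhb passed at 0.084 (adjusted p = 0.00627, limma) and Sdhd at 0.062 (adjusted p = 0.0254, limma), while against Gfp 3, 4 and 5 Sdhd passed at -0.051 (adjusted p = 0.0234, limma).

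Complex III, the cytochrome bc1 complex, had 2 of 9 nuclear members higher and 0 lower with Per1, and 0 passing with Per2 (limma, with 1 lower at an unadjusted p below 0.05). Uqcr10, a small accessory subunit, had 13.64, 13.77, 13.70, 13.66 and 13.70 in Per1 libraries and 13.54, 13.52, 13.56, 13.62 and 13.61 in Gfp libraries. These groups did not overlap. The difference was 0.12 ± 0.026 with Per1 (SE, n = 5 each, adjusted p = 0.0014, limma) and 0.040 with Per2 (adjusted p = 0.406, limma). With Per1 it passed against either part of the Gfp libraries, at 0.098 and 0.16, and with Per2 it was -0.025 (adjusted p = 0.286, limma) against Gfp 3, 4 and 5 and 0.14 (adjusted p = 0.000732, limma) against Gfp 1 and 2. The other was Uqcrq, also a small accessory subunit and named after its values were seen, at 0.099 with overlapping groups. Its call with Per1 was lost against Gfp 14, 15 and 16 alone, after median centring and with array weights, and with Per2 it passed against either part of the Gfp libraries alone though not against all of them.

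Complex IV, cytochrome c oxidase, held the members that were lowest with Per1 and with Per2, and these fell on genes that exist in a muscle form and a widely expressed form. The muscle form Cox6a2 (ENSMUSG00000030785.8, chr7:127804607-127805559, minus strand) had 13.27, 13.37, 13.26, 13.13 and 13.23 in Per1 libraries and 13.39, 13.29, 13.44, 13.52 and 13.50 in Gfp libraries. Per2 libraries had 12.21, 12.15, 12.13, 12.16 and 12.01 and Gfp libraries of that set 12.37, 12.26, 12.58, 12.48 and 12.52. The groups overlapped in the Per1 set and were separate in the Per2 set. The difference was -0.18 ± 0.045 with Per1 (SE, n = 5 each, adjusted p = 0.00558, limma) and -0.31 ± 0.052 with Per2 (SE, n = 5 each, adjusted p = 0.000374, limma). With Per2 it passed against either part of the Gfp libraries, at -0.39 and -0.18, whereas with Per1 it was -0.24 against Gfp 14, 15 and 16 and -0.087 (adjusted p = 0.22, limma) against Gfp 11 and 13.

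Cox8b, the muscle form of subunit 8 (ENSMUSG00000025488.9, chr7:140477069-140480359, minus strand), had 11.49, 11.57, 11.47, 11.37 and 11.42 in Per1 libraries and 11.63, 11.58, 11.76, 11.82 and 11.80 in Gfp libraries. In the Per2 set it had 11.13, 11.20, 11.13, 11.11 and 11.15 in Per2 libraries and 11.21, 11.11, 11.37, 11.33 and 11.36 in Gfp libraries. Per1 libraries all lay below their Gfp libraries, and the Per2 set overlapped. The difference was -0.25 ± 0.047 with Per1 (SE, n = 5 each, adjusted p = 0.000591, limma) and -0.13 ± 0.044 with Per2 (SE, n = 5 each, adjusted p = 0.0282, limma). Against either part of the Gfp libraries it passed with Per1, at -0.33 and -0.14, but with Per2 it was -0.21 against Gfp 3, 4 and 5 and -0.018 (adjusted p = 0.739, limma) against Gfp 1 and 2. Without a filter on low values it did not pass with Per2 (adjusted p = 0.0655, limma).

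Cox7a1, the muscle form of subunit 7a (ENSMUSG00000074218.3, chr7:29883569-29885503, plus strand), had 10.16, 10.30, 10.24, 10.03 and 10.11 in Per1 libraries and 10.34, 10.26, 10.34, 10.32 and 10.34 in Gfp libraries, with overlap. The difference was -0.15 ± 0.042 with Per1 (SE, n = 5 each, adjusted p = 0.0114, limma) and -0.059 with Per2 (adjusted p = 0.421, limma). Against Gfp 11 and 13 alone it was -0.13 with Per1 (adjusted p = 0.147, limma), and with Per2 it was -0.15 (adjusted p = 0.00923, limma) against Gfp 3, 4 and 5 and 0.076 (adjusted p = 0.2, limma) against Gfp 1 and 2.

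None of the widely expressed partners Cox6a1, Cox7a2 and Cox8a was lower with all Gfp libraries. Cox6a1 had 14.93, 15.10, 15.00, 15.00 and 15.02 in Per1 libraries and 14.91, 14.87, 14.83, 14.89 and 14.92 in Gfp libraries, and Cox8a had 14.85, 14.95, 14.88, 14.87 and 14.90 in Per1 libraries and 14.73, 14.75, 14.77, 14.80 and 14.83 in Gfp libraries. For both genes the groups were separate. The differences with Per1 were 0.13 for Cox6a1 (adjusted p = 0.00188, limma) and 0.11 for Cox8a (adjusted p = 0.00106, limma), and with Per2 they were 2.8e-05 for Cox6a1 (adjusted p = 0.999, limma) and 0.070 for Cox8a (adjusted p = 0.0674, limma). Cox7a2 had 0.014 with Per1 and 0.0011 with Per2, neither past the adjusted p with all Gfp libraries. With Per1 Cox7a2 was 0.082 (adjusted p = 0.0398, limma) against Gfp 11 and 13 and -0.031 (adjusted p = 0.37, limma) against Gfp 14, 15 and 16. With Per2 Cox7a2 turned from -0.053 (adjusted p = 0.0261, limma) against Gfp 3, 4 and 5 to 0.083 (adjusted p = 0.00672, limma) against Gfp 1 and 2. Cox8a passed with Per2 after quantile normalization, at 0.082 (adjusted p = 0.0431, limma), and against Gfp 1 and 2 alone. Cox6a1 shares 23.8% of its 31-base sequences with other genes, while Cox6a2, Cox7a1 and Cox8a share 0% and Cox8b 0.236%.

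The difference between the forms within a library is not touched by a shift of a whole library. Cox6a2 minus Cox6a1 was -1.86 to -1.66 in Per1 and -1.59 to -1.37 in Gfp libraries, and -2.83 to -2.67 in Per2 and -2.52 to -2.32 in Gfp libraries. Cox8b minus Cox8a was -3.50 to -3.36 in Per1 and -3.17 to -2.99 in Gfp libraries, and -3.68 to -3.56 in Per2 and -3.49 to -3.34 in Gfp libraries. For these pairs no Per library overlapped a Gfp library of its set. Cox7a1 minus Cox7a2 was -3.77 to -3.57 in Per1 and -3.54 to -3.40 in Gfp libraries, also separate, but -4.01 to -3.87 in Per2 and -3.96 to -3.82 in Gfp libraries, with overlap. The summed myotube markers given above were lower with Per1 without overlap, while with Per2 they overlapped. Among Gfp libraries of the Per1 set they were highest in Gfp 11 and 13, where Cox6a2 minus Cox6a1 was lowest. Cox6a2 minus the myotube marker Mb was -1.86 to -1.77 in Per1 and -1.89 to -1.83 in Gfp libraries. In the Per2 set it was -2.32 to -2.13 in Per2 and -2.29 to -2.19 in Gfp libraries, so both sets overlapped. The part of the markers in the differences between forms was not tested.

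**Figure D3:**
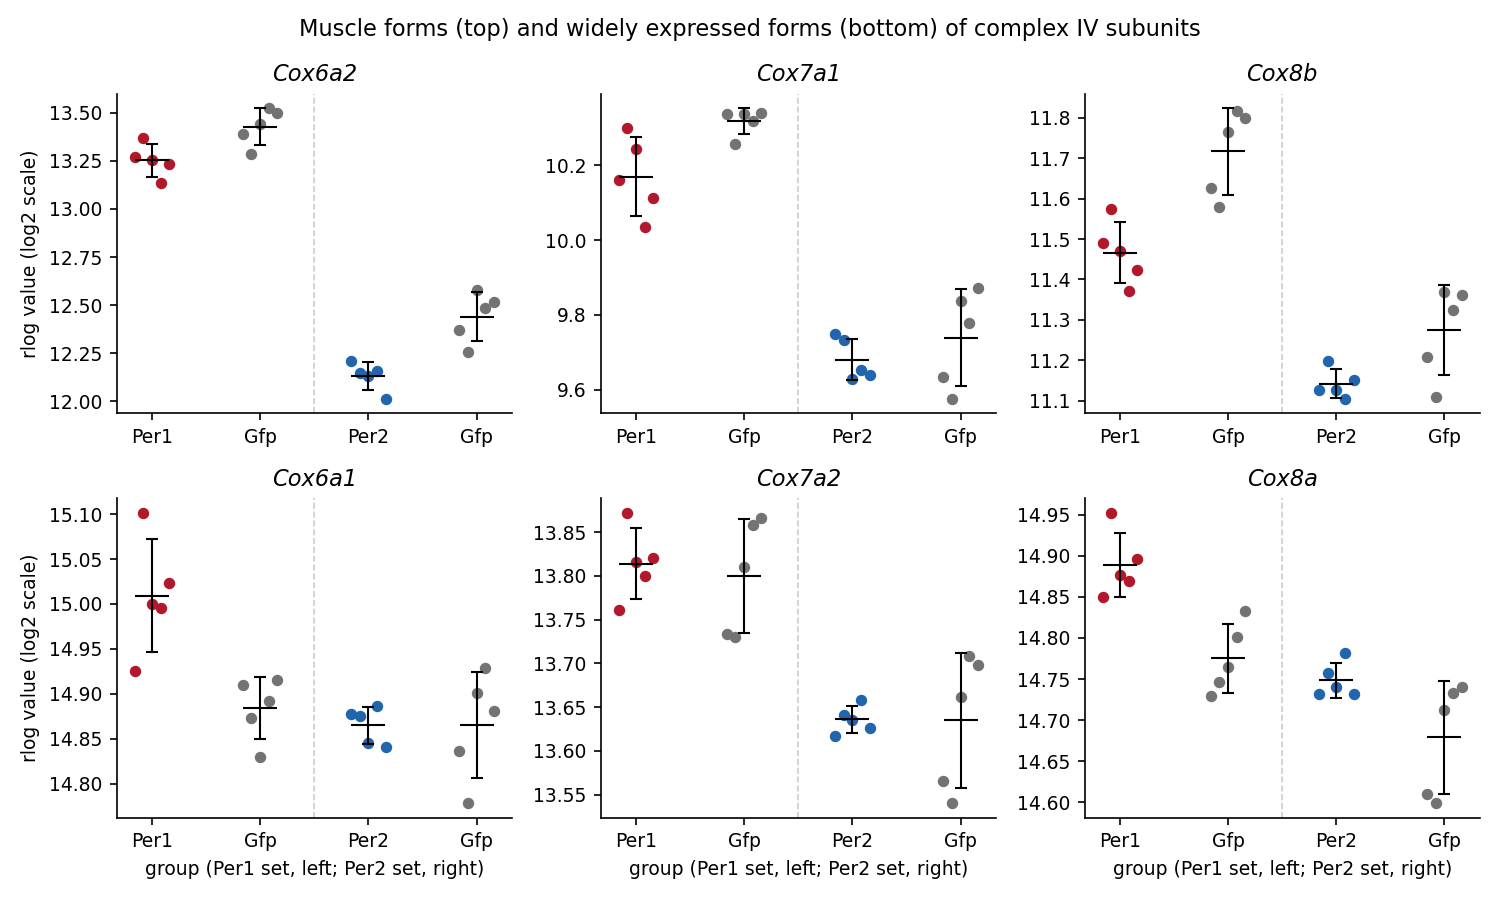
Rlog value (vertical axis, log2 scale) of muscle forms of complex IV subunits (top row, Cox6a2, Cox7a1 and Cox8b) and of their widely expressed partners (bottom row, Cox6a1, Cox7a2 and Cox8a) in each library, with the Per1 set left and the Per2 set right of the dashed line. Points are libraries, and black bars the mean and SD of 5 libraries. Cox8b lies at 11.37 to 11.57 in Per1 and 11.58 to 11.82 in Gfp libraries, whereas Cox8a lies at 14.85 to 14.95 in Per1 and 14.73 to 14.83 in Gfp libraries.

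The other forms of complex IV subunits were less changed. Cox6b2, best known from testis, was near the floor of the values at 5.16 to 5.25 in Per1 and 5.06 to 5.13 in Gfp libraries, without overlap, and its difference was 0.13 (adjusted p = 0.000379, limma). Ndufa4l2, a paralog of Ndufa4 induced by low oxygen in other cells, was likewise low at 5.55 to 5.66 in Per1 and 5.45 to 5.59 in Gfp libraries, with a difference of 0.088 (adjusted p = 0.0256, limma) that was lost after median centring (adjusted p = 0.0779, limma) and against Gfp 14, 15 and 16 alone (adjusted p = 0.13, limma). Neither passed with Per2, at 0.033 for Cox6b2 and 0.019 for Ndufa4l2. Cox4i1, the wide form of subunit 4, had 0.024 with Per1 and -0.052 with Per2, and Ndufa4 had 0.024 with Per1 and -0.011 with Per2, none of them past the adjusted p. With Per2, Cox4i1 was -0.080 and Ndufa4 -0.059 against Gfp 3, 4 and 5, both passing, while against Gfp 1 and 2 Ndufa4 turned to 0.061 (adjusted p = 0.0223, limma).

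Complex V, the ATP synthase, had 1 of 18 nuclear members higher and 0 lower with Per1 (limma, with 2 higher and 1 lower at an unadjusted p below 0.05), and 1 higher and 1 lower with Per2. The one that was higher with both was Atp5if1, the inhibitory factor that keeps the enzyme from running backward and splitting ATP. Atp5if1 (ENSMUSG00000054428.12) lies at chr4:132257215-132262823 on the minus strand. It had 13.74, 13.84, 13.76, 13.74 and 13.77 in Per1 libraries and 13.64, 13.60, 13.65, 13.71 and 13.74 in Gfp libraries. In the Per2 set it had 13.67, 13.69, 13.67, 13.74 and 13.68 in Per2 libraries and 13.50, 13.51, 13.62, 13.62 and 13.60 in Gfp libraries. The groups did not overlap in either set, though by a narrow margin with Per1. The difference was 0.10 ± 0.027 with Per1 (SE, n = 5 each, adjusted p = 0.00587, limma) and 0.12 ± 0.026 with Per2 (SE, n = 5 each, adjusted p = 0.00271, limma). With Per2 it passed against either part of the Gfp libraries, at 0.077 and 0.18, and with Per1 it was 0.15 against Gfp 11 and 13 and 0.073 (adjusted p = 0.055, limma) against Gfp 14, 15 and 16.

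Atp5f1b, the catalytic beta subunit, was lower with Per2 at -0.063 with overlapping groups, a call lost against Gfp 1 and 2 alone and after quantile normalization, and was named after its values were seen. Atp5f1a, the alpha subunit and named likewise, had -0.033 with Per1 (adjusted p = 0.0868, limma), without overlap. With Per2 it had -0.039 (adjusted p = 0.0708, limma). With Per1 it passed without a filter, after median centring or quantile normalization, with array weights or without Per1 12. With Per2 it passed after median centring, with array weights, without Gfp 2 or against Gfp 3, 4 and 5 alone. The genes for the rotor ring subunit c had 0.020, 0.048 and -0.029 with Per1 (Atp5mc1, Atp5mc2 and Atp5mc3, in that order) and -0.032, 0.027 and -0.047 with Per2, none past the adjusted p with all Gfp libraries and the values as deposited. Against Gfp 3, 4 and 5 alone Atp5mc1 (-0.076) and Atp5mc3 (-0.079) were lower with Per2. Atp5mc3 was also lower after median centring, at -0.051 with Per1 and -0.069 with Per2, and with Per2 also with array weights or without Gfp 2. Atp5mc2 was higher with Per1 after quantile normalization (0.066), with array weights or without Per1 14. Atp5mc1 and Atp5mc2 share 78.5% and 88.3% of their 31-base sequences with other genes, and their values are uncertain.

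The windows around the starts of Atp5if1, higher with both viruses, and of complex IV forms that moved with Per1 were read to show which regulatory letters they hold. RefSeq (GRCm38.p6) gave a window of 250 bases before to 50 after the start for 69 of the 85 nuclear members, but none for Cox6a2. The windows of Cox8b and Cox8a, of Cox6a1 and of Atp5if1 are printed 5′ to 3′ in the direction of the gene. Capitals mark matches, on either strand, to the letters GCGC, any base and TGCGC in a row (NRF-1), CCGGAAG (GABP), AAGATGGC (YY1), TCAAGGTCA (ERR), CACGTG and CAGCTG (E-boxes bound by clock and by myogenic factors) or to the MEF2 motif. No marked matches overlap in these windows.
Cox8b: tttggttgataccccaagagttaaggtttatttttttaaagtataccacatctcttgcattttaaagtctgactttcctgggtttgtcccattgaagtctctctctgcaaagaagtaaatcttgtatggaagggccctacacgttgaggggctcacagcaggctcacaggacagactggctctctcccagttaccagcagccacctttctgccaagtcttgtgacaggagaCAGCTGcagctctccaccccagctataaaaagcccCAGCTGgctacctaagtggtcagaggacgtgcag
Cox8a: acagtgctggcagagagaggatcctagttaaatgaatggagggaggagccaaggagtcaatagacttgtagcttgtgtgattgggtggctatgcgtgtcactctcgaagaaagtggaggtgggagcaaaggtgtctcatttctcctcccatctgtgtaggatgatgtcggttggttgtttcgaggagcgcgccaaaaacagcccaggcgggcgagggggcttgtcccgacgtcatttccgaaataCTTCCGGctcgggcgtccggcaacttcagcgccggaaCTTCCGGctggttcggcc
Cox6a1: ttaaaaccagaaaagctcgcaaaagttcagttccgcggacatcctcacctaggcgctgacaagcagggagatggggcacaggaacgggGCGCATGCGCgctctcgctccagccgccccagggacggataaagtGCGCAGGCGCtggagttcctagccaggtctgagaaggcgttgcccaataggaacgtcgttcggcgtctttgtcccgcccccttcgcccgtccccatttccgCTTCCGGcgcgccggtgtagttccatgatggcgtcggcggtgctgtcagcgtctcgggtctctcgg
Atp5if1: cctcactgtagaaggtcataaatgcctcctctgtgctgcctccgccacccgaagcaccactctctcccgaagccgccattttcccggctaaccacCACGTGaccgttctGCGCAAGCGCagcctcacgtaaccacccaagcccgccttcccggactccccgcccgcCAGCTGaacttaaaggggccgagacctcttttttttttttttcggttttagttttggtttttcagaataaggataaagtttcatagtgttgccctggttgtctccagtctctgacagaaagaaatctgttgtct
The Cox8b window (chr7:140900397-140900696, minus strand) has 2 CAGCTG matches and none to the other motifs. The window of its wide partner Cox8a (chr19:7217567-7217866, minus strand) has 2 GABP matches. That of Cox6a1 (chr5:115348909-115349208, minus strand) has 2 NRF-1 matches and 1 GABP match, and that of Atp5if1 (chr4:132535365-132535664, minus strand) has 1 NRF-1, 1 CACGTG and 1 CAGCTG match. The windows of Cox7a1, Cox7a2 and Ndufv3 hold no match.

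Over the 69 windows, NRF-1 letters were in 24.6% of members and in 4.78% of all 27025 windows of the same length, and GABP letters in 23.2% of members and 9.12% of all windows. YY1 letters were in 13% of members and 2.88% of all windows, and ERR letters in 2.9% and 0.407%. The E-box CACGTG was in 10.1% of members and 7.24% of all windows, and CAGCTG in 10.1% and 16.1%. MEF2 was in 0 of 69 members and in 3.26% of all windows. Median GC content was 57.3% in members and 52.7% in all windows. These matches are descriptions of the letters and not sites of binding.

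Among the 13 mitochondrial transcripts, a run of 3 neighbouring genes, mt-Nd4l, mt-Nd4 and mt-Nd5, was lower with both viruses. The genes lie in the order mt-Nd1, mt-Nd2, mt-Co1, mt-Co2, mt-Atp8, mt-Atp6, mt-Co3, mt-Nd3, mt-Nd4l, mt-Nd4, mt-Nd5, mt-Nd6 and mt-Cytb, with mt-Nd6 alone on the light strand. mt-Nd4l, mt-Nd4 and mt-Nd5 all encode subunits of complex I. mt-Nd4l (chrM:9877-10173) and mt-Nd4 (chrM:10167-11544) overlap on the same strand, as do mt-Atp8 and mt-Atp6. The values within such a pair are therefore not independent results. With Per2 mt-Nd1, mt-Nd2, mt-Nd6 and the complex III subunit mt-Cytb were also lower. The 5 genes from mt-Co2 to mt-Nd3 passed in neither set with all Gfp libraries and the values as deposited, but after quantile normalization mt-Atp8 was higher with Per1 (0.069, adjusted p = 0.0122, limma) and mt-Co3 lower with Per2 (-0.11, adjusted p = 0.000329, limma).

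mt-Nd5 (ENSMUSG00000064367.1, chrM:11742-13565, plus strand) encodes a proton-pumping subunit. Its values were 18.68, 18.70, 18.77, 18.76 and 18.76 in Per1 libraries and 18.79, 18.82, 18.86, 18.86 and 18.93 in Gfp libraries. In the Per2 set they were 18.83, 18.84, 18.89, 18.86 and 18.88 in Per2 libraries and 18.91, 18.94, 19.01, 18.99 and 19.02 in Gfp libraries. All Per libraries lay below all Gfp libraries of their set. The difference was -0.12 ± 0.027 with Per1 (SE, n = 5 each, adjusted p = 0.00248, limma) and -0.11 ± 0.024 with Per2 (SE, n = 5 each, adjusted p = 0.00247, limma). With Per2 it passed against either part of the Gfp libraries, at -0.15 and -0.061, and with Per1 it was -0.15 against Gfp 14, 15 and 16 and -0.073 (adjusted p = 0.0831, limma) against Gfp 11 and 13.

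mt-Nd4l (ENSMUSG00000065947.3, chrM:9877-10173, plus strand) encodes another membrane subunit of complex I. It had 14.79, 14.72, 14.82, 14.83 and 14.83 in Per1 libraries and 14.88, 14.88, 14.97, 14.93 and 14.96 in Gfp libraries. The values were 14.91, 14.95, 15.01, 14.92 and 14.97 in Per2 libraries and 15.02, 15.02, 15.11, 15.17 and 15.17 in Gfp libraries. Again no Per library reached a Gfp library of its set. The difference was -0.13 ± 0.025 with Per1 (SE, n = 5 each, adjusted p = 0.0011, limma) and -0.15 ± 0.031 with Per2 (SE, n = 5 each, adjusted p = 0.00227, limma), but against Gfp 11 and 13 alone or Gfp 1 and 2 alone it was -0.080 (adjusted p = 0.0645, limma) and -0.070 (adjusted p = 0.0625, limma). mt-Nd4 had -0.089 with Per1 (adjusted p = 0.021, limma) and -0.11 with Per2 (adjusted p = 0.00451, limma), with overlapping groups in both sets. The calls of mt-Nd1, mt-Nd2, mt-Nd4, mt-Nd6 and mt-Cytb with Per2 were lost against Gfp 1 and 2 alone, where their differences were -0.056 to -0.019, and that of mt-Nd4 with Per1 against Gfp 11 and 13 alone, at -0.028. After quantile normalization mt-Nd1 turned to 0.0067 with Per2, and mt-Nd2 (-0.050) and mt-Nd4 (-0.068) with Per2 no longer passed.

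mt-Co2 (ENSMUSG00000064354.1, chrM:7013-7696, plus strand), which encodes the copper-holding subunit of complex IV, had 18.81, 18.91, 18.86, 18.85 and 18.91 in Per1 libraries and 18.77, 18.77, 18.84, 18.86 and 18.91 in Gfp libraries. Its groups overlapped, and its difference was 0.039 with Per1 (adjusted p = 0.312, limma) and -0.014 with Per2 (adjusted p = 0.758, limma). mt-Co1, which encodes the catalytic subunit, had -0.051 with Per1 (adjusted p = 0.132, limma) and -0.067 with Per2 (adjusted p = 0.067, limma). It was lower in other settings, at -0.073 with Per1 and -0.089 with Per2 after median centring, at -0.086 with Per1 against Gfp 14, 15 and 16, and at -0.10 with Per2 against Gfp 3, 4 and 5. With Per2 it was also lower with array weights, with the replicate block and without Gfp 1. Against Gfp 11 and 13 it was 0.0013 with Per1, and against Gfp 1 and 2 it was -0.013 with Per2, neither passing. mt-Atp6 and mt-Atp8, the membrane subunits of complex V, had 0.041 and 0.037 with Per1 and -0.020 and -0.012 with Per2. mt-Co3 had 0.016 with Per1 and -0.029 with Per2, and mt-Nd3 had 0.071 with Per1 and 0.023 with Per2. Against Gfp 11 and 13 alone mt-Co2, mt-Atp8, mt-Atp6 and mt-Nd3 were higher with Per1, at 0.079 to 0.14. mt-Co2 with Per2 turned from -0.065 against Gfp 3, 4 and 5 to 0.062 against Gfp 1 and 2, both passing, and mt-Co3 was lower with Per2 against Gfp 3, 4 and 5, at -0.084, and mt-Nd3 higher against Gfp 1 and 2, at 0.099. mt-Nd2 (-0.078) and mt-Cytb (-0.061) were lower with Per1 against Gfp 14, 15 and 16.

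Set within each library, mt-Nd5 minus mt-Co2 was -0.12, -0.21, -0.091, -0.096 and -0.15 in Per1 libraries and 0.020, 0.057, 0.025, -0.0086 and 0.022 in Gfp libraries. In the Per2 set it was 0.016, 0.013, 0.028, 0.013 and 0.020 in Per2 libraries and 0.11, 0.17, 0.12, 0.062 and 0.11 in Gfp libraries. The groups were separate in both sets, whichever Gfp libraries are taken. This pair was chosen after the values were seen, and nearly all of mt-Co2 is also held by a nuclear copy. Against mt-Co1 the difference was smaller, with mt-Nd5 minus mt-Co1 at -2.24 to -2.17 in Per1 and -2.18 to -2.10 in Gfp libraries, which overlapped, and at -2.10 to -2.07 in Per2 and -2.06 to -2.02 in Gfp libraries, which did not. The ribosomal RNAs of the same genome, also named after their values were seen, had 0.016 (mt-Rnr1) and -0.026 (mt-Rnr2) with Per1, neither past the adjusted p, and were lower with Per2 at -0.13 (mt-Rnr1) and -0.15 (mt-Rnr2). The libraries were enriched for poly(A), and the part of that step in the values of mitochondrial RNAs was not tested.

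**Figure D4:**
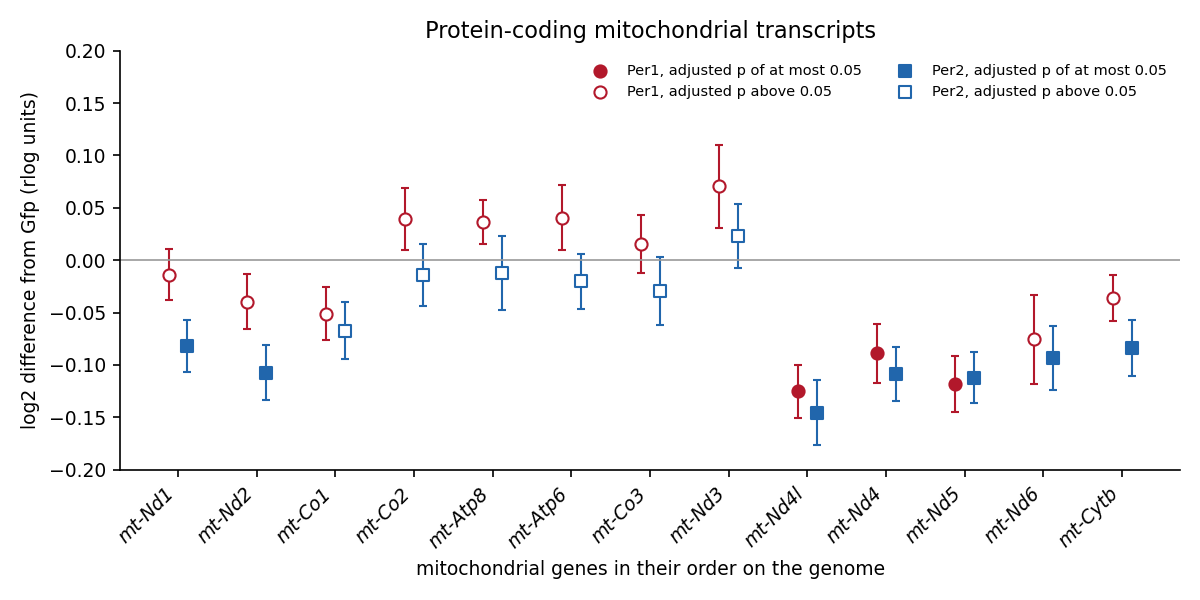
Log2 difference from Gfp (vertical axis, rlog units) of the 13 protein-coding mitochondrial genes in their order on the genome (horizontal axis), with Per1 as circles and Per2 as squares. Error bars are SE from 5 libraries a group, and filled symbols passed the adjusted p. The values of mt-Nd4l, mt-Nd4 and mt-Nd5 lie between -0.15 and -0.089 in both sets, those from mt-Co2 to mt-Nd3 between -0.029 and 0.071.

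Nuclear copies of mitochondrial sequence limit the reading of single genes. The share of 31-base sequences held by other annotated genes was 100% for mt-Co2, 99.9% for mt-Co3, 99.5% for mt-Atp6, 99.1% for mt-Nd3 and 98.9% for mt-Nd4l. It was 63.9% for mt-Co1, 62.8% for mt-Nd4, 16.8% for mt-Nd5, 13.5% for mt-Nd2 and at most 7.47% for mt-Atp8, mt-Nd6, mt-Cytb and mt-Nd1. How reads that fit several places were counted is not given in the sources used here, so the values of the genes with high shares are uncertain. The copies that hold mt-Nd4l and mt-Nd4 sequence were lower in both sets, at -0.11 and -0.13 for Gm10222 and -0.17 and -0.15 for Gm28439 with Per1 and Per2 in that order. The copy with mt-Co2 sequence, Gm28661, had -0.011 with Per1 and was lower with Per2 at -0.090. mt-Nd6 overlaps the end of mt-Nd5 on the other strand. The library kit keeps the strand, but whether the counting used it is not given in the sources used here.

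Levels between genes were compared only per length of the annotated transcript. In Gfp libraries the mitochondrial members had a median log2 level per kilobase of 18.4 in the Per1 set and 18.5 in the Per2 set, and the nuclear members of 13.9 and 13.8. The highest was mt-Co1 at 20.4 in both sets. The highest nuclear member was Atp5f1b at 17.2 in the Per1 set and 17.1 in the Per2 set, and the lowest was Ndufa4l2 at 5.56 and 4.64. Among the muscle and wide forms, the log2 level per kilobase in Gfp libraries of the Per1 set was 14.0 for Cox6a2 and 15.7 for Cox6a1, 10.6 for Cox8b and 15.6 for Cox8a. The length was that of a single annotated transcript per gene, 2149 bases for Cox8b and 564 for Cox8a. These levels therefore depend on which transcript was taken, and whether it is the form expressed was not tested.

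Of the 98 members, 2 were higher with both viruses (Atp5if1 and Ndufv3), 5 were lower with both (Cox6a2, Cox8b, mt-Nd4, mt-Nd4l and mt-Nd5), 0 passed in opposite directions, and 70 passed in neither set. The share of all genes that passed alike with both viruses was not counted. Whether the shared calls are more or fewer than among other genes is therefore not known. The differences with Per1 and with Per2, which use separate Gfp libraries, had r = 0.792 and rho = 0.748 across the 98 genes, r = 0.752 across the 85 nuclear and r = 0.948 across the 13 mitochondrial genes. These are correlations across genes within a culture experiment, and genes are not independent replicates. The same correlation over all genes was not computed, so the likeness is not shown to be particular to OXPHOS or mitochondrial genes. Members that passed with 1 virus only, such as Uqcr10 and Cox6a1 with Per1 or Sdha with Per2, are not shown to differ between the viruses, since that difference was not tested.

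The other genes of the pathway were taken from lists and are given as counts that passed the adjusted p (limma), to be read against the 40.7% with Per1 and 36.1% with Per2 of all genes. Calls on these genes, here and in the paragraphs that follow, use all Gfp libraries and the values as deposited. How they depend on these choices is not given here. The share of a list that passed in either direction was 37.0% and 21.3% for assembly factors with Per1 and Per2 in that order, 37.2% and 30.8% for mitochondrial ribosomal proteins, and 35.3% and 41.2% for the tricarboxylic acid cycle. It was 45% and 40% for carriers and ubiquinone synthesis, 32% and 52% for mitochondrial DNA, and 64.3% and 50% for regulators. Of OXPHOS assembly factors, 10 were higher and 7 lower of 46 with Per1, and 7 higher and 3 lower of 47 with Per2. Coa6, a complex IV assembly factor, was higher at 0.19 with Per1, and Acad9, a complex I assembly factor, was higher at 0.17 with Per1 and 0.13 with Per2. Tmem126b, of the same assembly complex as Acad9, was higher at 0.082 with Per1 and 0.16 with Per2, and Sdhaf4, an assembly factor of complex II, was higher at 0.17 with Per1 and 0.16 with Per2. Of 78 mitochondrial ribosomal proteins, 25 were higher and 4 lower with Per1, and 17 higher and 7 lower with Per2. Mrpl54, a protein of the large subunit, was higher at 0.20 with Per1 and 0.24 with Per2, followed by Mrpl34 (0.18 with Per1 and 0.11 with Per2) and Mrpl36 (0.16 with Per1 and 0.19 with Per2).

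Of 20 genes of electron carriers, ubiquinone synthesis and inner membrane carriers, 3 were higher and 6 lower with Per1, and 2 higher and 6 lower with Per2. Coq8a and Coq10b, which serve ubiquinone synthesis and function, were lower at -0.20 and -0.23 with Per1 and at -0.22 and -0.21 with Per2. Of 17 genes of the tricarboxylic acid cycle and pyruvate dehydrogenase, 3 were higher and 3 lower with Per1, and 3 higher and 4 lower with Per2. Idh2, the mitochondrial NADP-dependent isocitrate dehydrogenase, was higher at 0.14 with Per1 and 0.093 with Per2, and so was Suclg2, a subunit of succinyl-CoA ligase, at 0.15 with Per1 and 0.087 with Per2. Pdha1, a subunit of pyruvate dehydrogenase, was lower at -0.12 with Per1 and -0.18 with Per2.

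Of 25 genes that maintain or express mitochondrial DNA, 1 was higher and 7 lower with Per1, and 3 were higher and 10 lower with Per2. Fastkd5, which helps to process mitochondrial transcripts that no tRNA borders, was lower at -0.24 with both viruses, without overlap. Tfb2m, a transcription factor of mitochondrial DNA, was lower at -0.24 with Per2 and had -0.12 with Per1 (adjusted p = 0.09, limma). Lrpprc, which stabilizes mitochondrial messenger RNA, was lower at -0.080 with Per1 and -0.17 with Per2, without overlap. Twnk, the helicase of mitochondrial DNA and named after its values were seen, was lower at -0.14 with Per1 and -0.21 with Per2. Top1mt, the mitochondrial topoisomerase, was higher at 0.33 with Per1 and 0.14 with Per2, and Pnpt1, a nuclease that degrades RNA in mitochondria, was higher at 0.16 with Per2 and at 0.025 did not pass with Per1. Tfam and Polrmt, the packaging factor and the polymerase, did not pass, at -0.016 and -0.00086 with Per1 and -0.0056 and -0.029 with Per2.

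Of 14 transcriptional regulators of mitochondrial genes, 2 were higher and 7 lower with Per1, and 2 higher and 5 lower with Per2. Myc was lower at -0.28 with Per1 and -0.54 with Per2, and Pprc1, a relative of PGC-1α named after its values were seen, was lower at -0.18 with Per1 and -0.20 with Per2. Ppargc1a, which encodes PGC-1α, was lower at -0.10 with Per1 and had -0.072 with Per2 (adjusted p = 0.157, limma). Perm1, a muscle factor that acts with PGC-1 and ERR, was higher at 0.30 with Per1 and 0.22 with Per2, and Hif1a, the oxygen-regulated factor, was higher at 0.15 with Per1 and 0.23 with Per2. Esrra and Nrf1 did not pass, at 0.036 and 0.019 with Per1 and 0.013 and 0.0049 with Per2.

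**Figure D5:**
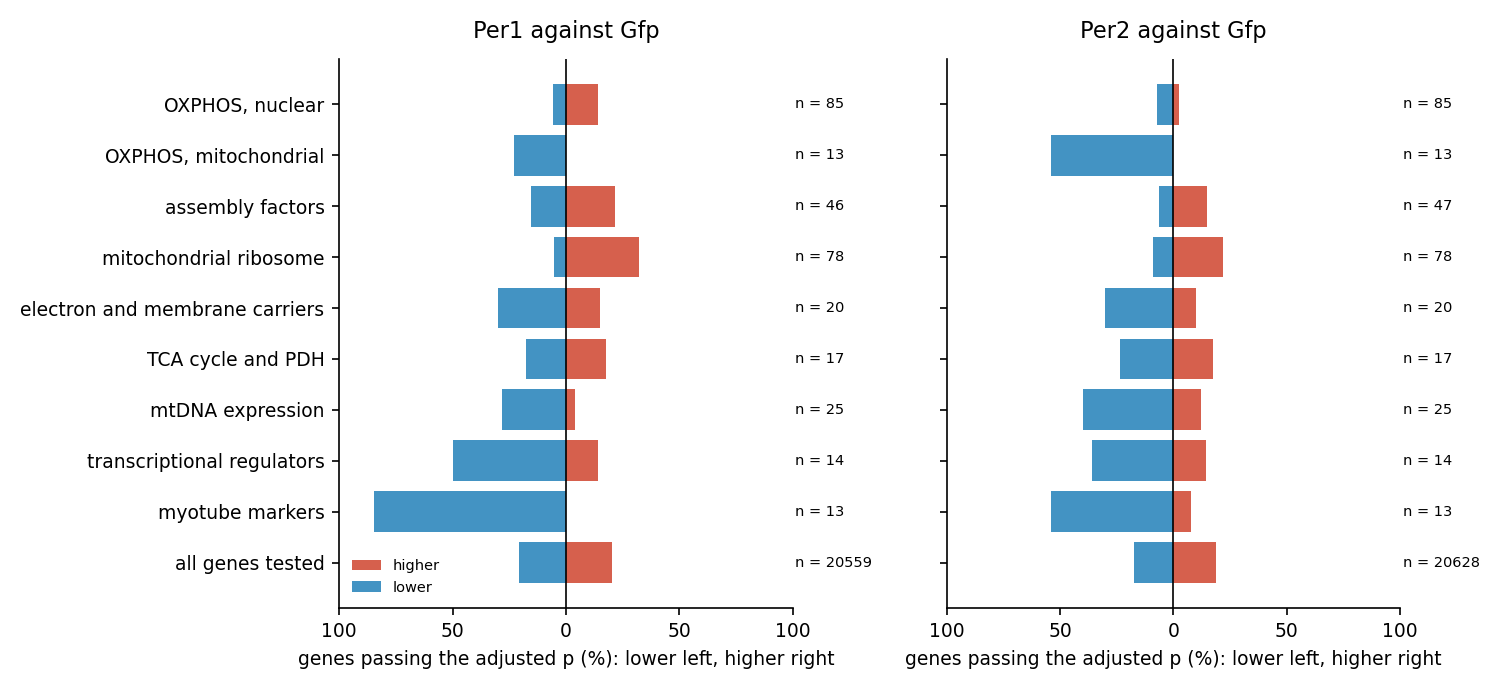
Share of the genes of each list that passed the adjusted p (horizontal axis, %, lower to the left and higher to the right of 0) with Per1 against Gfp (left) and Per2 against Gfp (right), with the number of genes tested beside each bar. The bottom bars give all genes tested. Nuclear OXPHOS members have 20% passing with Per1 and 9.41% with Per2, against 40.7% and 36.1% of all genes.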

How the data were processed

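RNA from 20 C2C12 myotube cultures was enriched for poly(A) and made into strand-marked libraries, per the methods. The authors used STAR for alignment and gene counts and deposited DESeq2 regularized log2 (rlog) values, made separately for the Per1 and the Per2 set (2712 and 2391 genes were 0 in all libraries of one set only). The labels name mm10 and the methods GRCm39 as the genome. With no counts in the values, the depth per library is unknown and counting error cannot be stated.

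Genes were matched by ID to GENCODE M39 (51654 of 55335). Each Per group was compared with the Gfp group of its set by limma (version 3.58.1, R 4.3.3, two-sided, trended prior) over genes averaging 3 rlog units or more, with Benjamini-Hochberg adjustment over all of them. Passing means an adjusted p of at most 0.05, and the fold threshold was a log2 difference of 0.5. Errors are SE from the fit. Scripts were tested on simulated data. Shared 31-base sequences were counted over all annotated transcripts, and promoter windows came from RefSeq (GRCm38.p6).

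The members and lists were chosen with earlier results of these data known. Named members were the mitochondrial genes, the paralog pairs, complex II, and, for each complex and direction, the 2 nuclear members with the largest difference that passed without overlap. Of each related list the 2 genes with the largest passing difference were named, with 7 regulators (Ppargc1a, Esrra, Nrf1, Tfam, Polrmt, Lrpprc and Pnpt1) whatever their values. Same-numbered libraries had deviations correlated at -0.105 to 0.18, so the numbers were not taken as pairs. Alternatives covered the filter, the scaling, the prior, library weights, a block for library number and libraries left out.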

Additional observations from a re-analysis of the deposited data

Results flagged for a closer look

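In 5 of the 144 groups of 5 libraries checked, 1 library stood far from the others relative to the range of its group, and chance gives about 1 in 20. Atp5if1 was highest in Per1 12, at 13.84, with the next Per1 library at 13.77, and in Per2 4, at 13.74, with the next Per2 library at 13.69. mt-Nd6 was lowest in Per1 11, at 16.52, with the next at 16.70. Among Gfp libraries of the Per1 set, Cox7a1 was lowest in Gfp 13, at 10.26 with the next at 10.32, and Sdha was highest in Gfp 11, at 15.56 with the next at 15.51.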

How the results depend on the processing

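The counts of members that passed were small and moved with the processing, the cause of which was not tested. With Per1, 12 were higher and 8 lower. Median centring gave 6 and 16, requiring in addition that groups do not overlap gave 6 and 3, and leaving out each library in turn gave 7 to 14 and 5 to 11. The 7 came without Gfp 11, Gfp 13 or Per1 13, and the 5 without Gfp 14 or Gfp 16. Leaving out Gfp 11 and 13 gave 5 higher and 11 lower, and leaving out Gfp 14, 15 and 16 gave 23 higher and 1 lower and turned the mitochondrial median to 0.018.

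With Per2, 2 were higher and 13 lower. The lower count was 20 under median centring, 22 with array weights, 6 where groups must not overlap, and 8 (without Gfp 5) to 19 with each library left out, while the higher count was 2 to 4 (4 without Gfp 4). Leaving out Gfp 1 and 2 gave 2 higher and 61 lower, and leaving out Gfp 3, 4 and 5 gave 47 higher and 3 lower, with medians of 0.063 (nuclear) and -0.019 (mitochondrial). All 15 members that had passed remained without Gfp 1 and 2, and 5 of them without Gfp 3, 4 and 5.

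With each library left out, medians ran over 0.0027 to 0.029 (nuclear) and -0.047 to -0.021 (mitochondrial) with Per1, and over -0.025 to 0.0079 (nuclear) and -0.10 to -0.071 (mitochondrial) with Per2. No member reached the fold threshold under any of these. Differences that turned with Per2 were mt-Nd1 under quantile normalization (0.0067, adjusted p = 0.763, limma), Cox7a2 without Gfp 1 and 2 (-0.053), and, without Gfp 3, 4 and 5, Sdhd (0.062), Ndufa4 (0.061) and mt-Co2 (0.062). Of the single values and list counts recomputed, 1881 were unchanged in direction and call or within the spread, and 148 moved, 46 gained the call, 46 lost it and 5 turned.

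The replicate block for library number, which leaves out Gfp 16 and Per1 12 as unmatched, gave 19 members passing with Per1, 18 of them among the 20, and 16 with Per2, 15 of them among the 15. Rlog values shrink differences, most at low levels, and with no read counts the depth behind a value cannot be given.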
